A study of Homo sapiens with 18 samples.

Results

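Ribosome footprints of human definitive endoderm were sequenced either from the whole digested lysate (total footprints, 2 libraries) or after pulling down ribosomes through a FLAG tag on the ribosomal protein RPL22 (FLAG pull-down, 2 libraries). These 4 libraries, chosen by their labels, are compared here out of the 18 in the series, over every gene and by RNA class. The cells came from MEL1 INSGFP/W, a human embryonic stem cell line in which GFP reports the insulin gene, grown undifferentiated or differentiated towards beta-like cells. All 4 libraries carry the genotype label RPL22-FLAG and the cell type label DefinitiveEndoderm, so total and pulled-down footprints both come from cells with the tag. Their source name and cell line labels, however, read undifferentiated hES, as they do for every sample of the series, so the stage was also checked by marker genes. Matched undifferentiated stem cells (labelled hPSC) of the same genotype, with 2 libraries of each kind, entered the same statistical fit. What drives the tagged gene in these samples, and whether the cells are 1 clone, is not given in the sources used here. A FLAG pull-down from cells without the tag was not analysed here.

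Ribosome profiling digests a lysate with RNase and sequences the fragments that survive. A translating ribosome shields a stretch of mRNA, but any RNA that is short, folded or held in another protein complex can survive too, including miRNAs in Argonaute, spliceosomal RNAs and snoRNAs in their particles, and the RNA of mitochondrial ribosomes. RPL22 is a protein of the cytosolic large ribosomal subunit, and mitochondria build their own ribosomes from other proteins. A pull-down through tagged RPL22 therefore asks which fragments travel with cytosolic ribosomes. The protocols name RNase I for the digestion, lysis without cycloheximide, anti-FLAG M2 magnetic beads and riboPOOLs for removal of rRNA fragments.

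Total counts were 30167927 and 24257389 in the total footprint libraries and 6606248 and 19863729 in the pull-down libraries. Total footprint library 1 stood apart. There, 6 features that each held over 2% of any of these 4 libraries took 55.6% of all counts, against 10.2% in total footprint library 2 and 5.57% and 1.38% in the pull-downs, and its scaling factor was 0.453 against 1.22, 1.36 and 1.34. Replicate libraries correlated across genes at Spearman 0.951 for total footprints (12025 genes) and 0.941 for the pull-down (10686 genes). Results are therefore given with and without total footprint library 1. Whether the 2 libraries of each group stem from separate cultures is not stated in the labels, and the p-values therefore measure the spread between these libraries, which may be technical. Definitive endoderm markers, 24 genes, summed to 2080 and 2900 normalised counts per 1000000 counts (CPM) in total footprints and 3870 and 2950 CPM in the pull-down. Pluripotency markers, also 24 genes, summed to 1410 and 1440 CPM against 1380 and 1590 CPM, and 10 ectoderm and neural markers to 202 and 273 CPM against 363 and 317 CPM. Mesoderm markers summed to between 3.86 and 6.53 CPM and blood and endothelial markers to between 3.66 and 6.57 CPM, 10 genes each. The part of other cell types in the results was not tested. GATA6, an endoderm transcription factor, was at 109 to 253 CPM in the 4 endoderm libraries and at 0.394 to 0.865 CPM in the 4 stem cell libraries.

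The miRNAs that were lower in the pull-down than in total footprints included several with a shared seed, the bases at positions 2 to 8 that pair with target mRNAs. Of 105 miRNA hairpins tested, 29 (27.6%) were called lower. Fold changes were below 0 for 103 of the 105. Counts were under 10 in every pull-down library of either stage for 67 of the 105. Their direction was partly fixed by the filter on low counts, which a row could pass through total footprints alone. All 19 hairpins with at least 10 counts in both endoderm pull-down libraries also had fold changes below 0. Whether a low level in the pull-down depends on the seed was not tested. Of the 29 miRNA hairpins called lower, which carry 44 distinct seeds, 5 encode an arm with the seed AAGUGCU and 4 encode an arm with the related seed AAAGUGC. Both groups are known from pluripotent cells, the first as the miR-302 and miR-372 family and the second as members of the miR-17 family. Their mature sequences, from RefSeq annotation of GRCh38.p14, are shown with the seed in capitals because the seed defines the groups.
hsa-miR-302a-3p: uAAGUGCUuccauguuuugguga
hsa-miR-302b-3p: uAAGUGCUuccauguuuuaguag
hsa-miR-302c-3p: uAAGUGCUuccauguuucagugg
hsa-miR-302d-3p: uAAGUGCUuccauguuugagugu
hsa-miR-372-3p: aAAGUGCUgcgacauuugagcgu
hsa-miR-17-5p: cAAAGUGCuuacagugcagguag
hsa-miR-20a-5p: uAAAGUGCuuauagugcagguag
hsa-miR-20b-5p: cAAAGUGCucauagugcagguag
hsa-miR-93-5p: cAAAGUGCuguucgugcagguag
The miR-302 hairpins lie together on the minus strand of chromosome 4, with the mature miR-302a-3p at chr4:112648186-112648208. RefSeq lists 12 hairpins with the first seed, of which 6 could be tested, and 8 with the second, of which 5 could be tested. The deposited counts are per hairpin, so the arm that was sequenced is not resolved, and the split of reads between hairpins with such similar arms is uncertain.

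Small noncoding RNA and mitochondrial RNA were lower in the pull-down of tagged ribosomes than in total footprints, and few protein-coding genes passed the test in either direction. Of 16679 genes tested with edgeR's quasi-likelihood test, 144 (0.863%) differed at an adjusted p under 0.05, of which 134 (0.803%) were lower and 10 (0.06%) were higher in the pull-down. With total footprint library 1 left out, 74 were lower and 9 were higher. With pull-down library 1 left out, 33 were lower and 3 were higher, and 38 of the 52 called genes named here lost their call. The 14 that kept it were MIR302C, MIR372, MIR20B, MIR367, MIR182, MIR191, MT-CO1, MT-TN, RNU5E-1, RNU5E-4P, SNORD60, TMC5, DYNLL1P1 and WDR82P2. Of those that kept it, MIR302C, MIR372, MIR20B, MIR367, MIR182, MIR191, MT-TN and DYNLL1P1 had fewer than 10 counts in a pull-down library. WDR82P2 had no count in total footprints. Such rows could pass the filter on low counts through other libraries alone, so keeping a call adds little for them. The median log2 fold change over all genes tested was -0.01. Of the 134 lower genes, 72 belonged to 6 small RNA classes (miRNA, snRNA, snoRNA with scaRNA, other small RNP RNA, mitochondrial rRNA and mitochondrial tRNA), which held 502 of the genes tested. Rows with at least 10 counts in both endoderm pull-down libraries made up 30 of these 72 and 72 of all 134 lower genes. No gene of these classes was called higher. Of 13216 protein-coding genes, 24 were lower and 2 were higher. Fitted alone, 13192 protein-coding genes gave 50 lower and 3 higher, all 26 calls of the joint fit among them.

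Shares of all counts need neither a filter nor a scaling. The 6 small RNA classes together took 8.59% (95% Wilson interval 8.58 to 8.6) and 9.76% (9.75 to 9.77) of total footprints and 3.02% (3.0 to 3.03) and 3.05% (3.05 to 3.06) of the pull-down. The groups did not overlap. Without the 6 large features in the denominator the same shares were 19.3% and 10.9% against 3.19% and 3.1%. Protein-coding genes took 40.6% and 76.1% of total footprints and 84.2% and 88.6% of the pull-down.

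Each noncoding class that follows was also separated between the groups. Mature and precursor miRNA rows took 0.278% and 0.401% of total footprints and 0.0304% and 0.0507% of the pull-down. Mitochondrial tRNA took 0.0466% and 0.046% against 0.00525% and 0.0043%, and mitochondrial rRNA took 0.829% and 1.87% against 0.228% and 0.282%. Spliceosomal snRNA took 3.56% and 4.20% against 1.26% and 1.21%. Both pull-down values lay below both total footprint values in every one of these classes. Shares of snoRNA and scaRNA, which guide chemical modification of other RNAs, were 3.47% and 2.83% against 1.41% and 1.43%. Long noncoding RNA took 18.4% and 2.33% against 0.915% and 0.672%, with most of the first value in LINC01783, at 16.3% of total footprint library 1. The widest 95% Wilson interval among these classes was 10.6% of its share to either side, for mitochondrial tRNA in pull-down library 1, and intervals cover counting error only. With 2 libraries against 2, an exact permutation test of a share cannot give a two-sided p below 0.333.

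**Figure D1:**
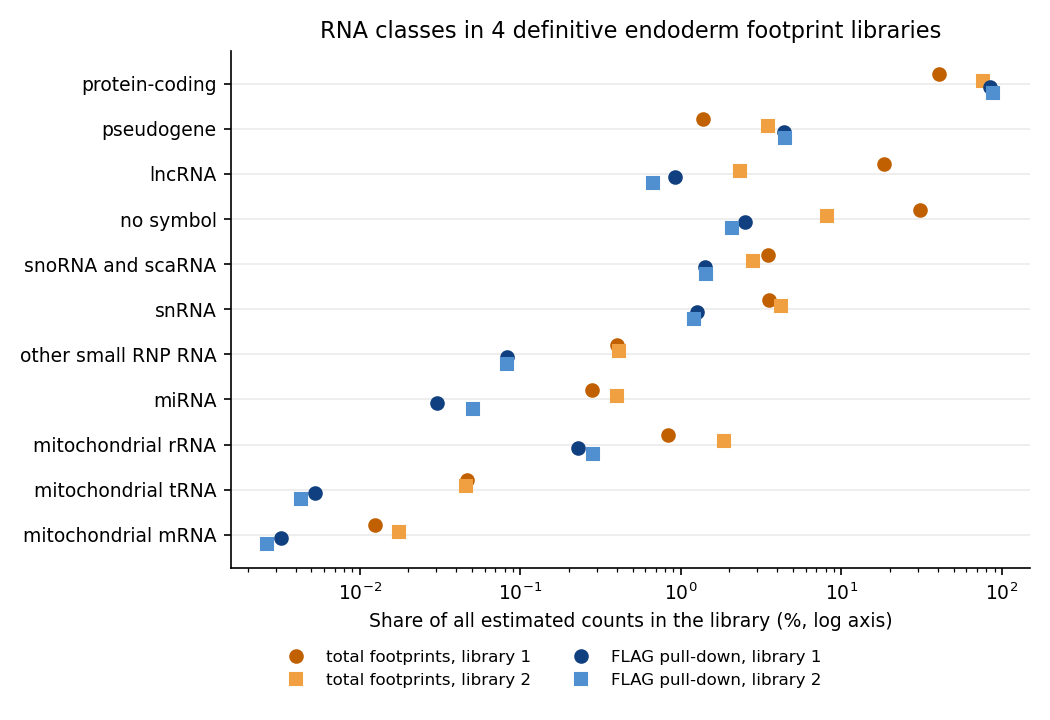
Share of all estimated counts (percent, log axis) held by each RNA class in the 4 definitive endoderm footprint libraries, 1 point per library. Both pull-down points (blue) lie left of both total footprint points (orange) for the small RNA and mitochondrial classes, as with miRNA at 0.0304% and 0.0507% against 0.278% and 0.401%, and right of them for protein-coding genes.

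Fitted fold changes are known only for rows that passed a filter on low counts, which a row could pass through the total footprints alone. Of the 502 small RNA rows tested, 189 had fewer than 10 counts in every pull-down library of either stage, so their direction, and that of any call among them, was partly fixed by the filter. The medians by class are descriptions for that reason. They were -5.41 for 105 miRNAs, -5.28 for 20 mitochondrial tRNAs, -3.10 for 152 snRNAs, -3.13 for 29 other small RNP RNAs and -2.81 for 194 snoRNAs and scaRNAs, against 0.03 for protein-coding genes. Among rows with at least 10 counts in both endoderm pull-down libraries the medians were -4.37 for 19 miRNAs, -4.71 for only 3 mitochondrial tRNAs and -1.90 for 71 snRNAs. They were -3.84 for 8 other small RNP RNAs and -2.59 for 102 snoRNAs and scaRNAs. Leaving out total footprint library 1, the class medians were -5.15, -4.32, -1.73, -2.36 and -1.87 in the order first given, so snRNA moved most in fold. Pseudogenes had a median of 0.09 and long noncoding RNAs of -0.90.

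**Figure D2:**
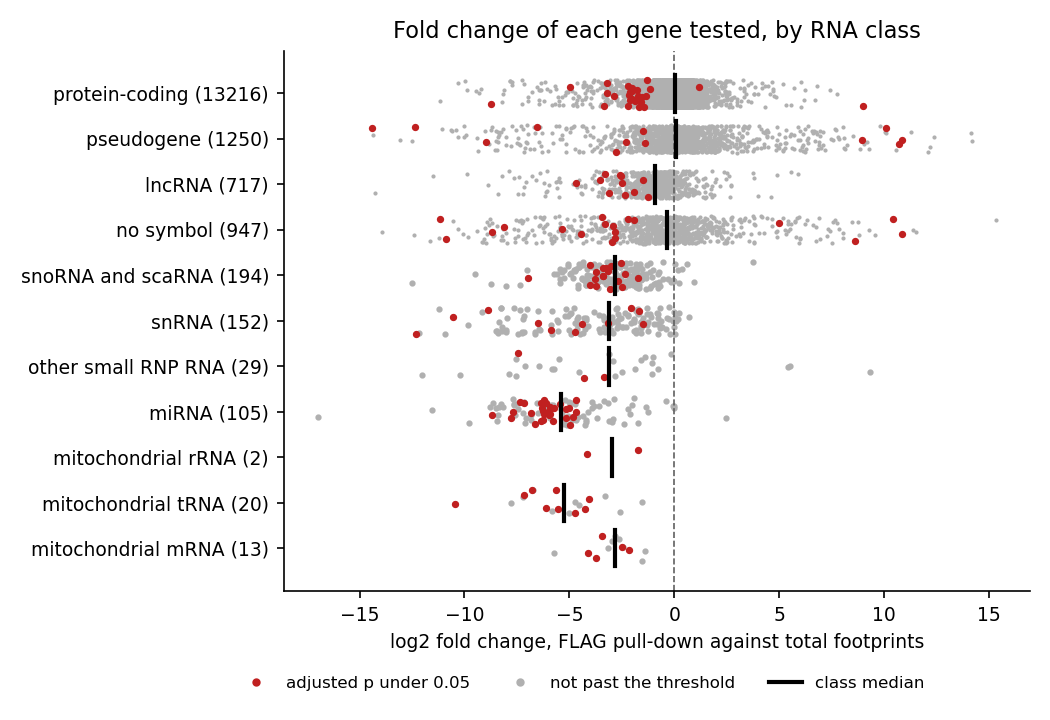
Log2 fold change of the FLAG pull-down against total footprints for each gene tested, by RNA class (number tested in brackets), with genes past an adjusted p of 0.05 in red, others in grey and the class median as a black bar. The median is 0.03 for protein-coding genes and -5.41 for miRNA; fold changes of rows at 0 in a group depend on the prior count.

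miRNAs were the class with the most calls, 29 of the 105 tested, with log2 fold changes from -8.68 to -4.68. The table holds 1803 miRNA rows in all, of which 67 of the 105 tested had fewer than 10 counts in every pull-down library. Only 19 of the 105 had at least 10 counts in both endoderm pull-down libraries, and 5 of the 29 calls were among these. MIR302A had 1290 and 814 CPM in total footprints and 13.1 and 8.32 CPM in the pull-down. MIR302B had 744 and 728 CPM against 11.6 and 9.75 CPM. The groups were far apart for both, and the replicates lay closer together for MIR302B than for MIR302A. The log2 fold change was -6.62 ± 0.77 (SE) for MIR302A (edgeR adjusted p = 0.0218) and -6.11 ± 0.51 for MIR302B (edgeR adjusted p = 0.00494). Without total footprint library 1, the adjusted p was 0.0808 for MIR302A and 0.0229 for MIR302B. Without pull-down library 1, MIR302B had 0.0881. MIR302C fell by 5.78 on the log2 scale (SE 0.37, edgeR adjusted p = 0.00287), and the log2 fold changes of MIR302D and MIR372 were -5.96 ± 0.64 and -5.98 ± 0.48 (edgeR adjusted p = 0.0145 and 0.00439). MIR373, with the same seed and from the same cluster as MIR372 on chromosome 19, had 97.0 and 97.5 CPM against 4.90 and 0.637 CPM, and did not pass (log2 fold change -5.32 ± 1.04, edgeR adjusted p = 0.128).

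All 4 called hairpins of the second seed group were likewise at a small fraction of their total footprint level. MIR17 had 29.5 and 45 CPM in total footprints and 0.223 and 0.225 CPM in the pull-down, where it rested on 2 and 6 counts. Its log2 fold change was -7.34 ± 0.85 (edgeR adjusted p = 0.0189). MIR20A, of the same cluster on chromosome 13, was lower by a log2 fold change of -5.93 ± 0.70, MIR20B on chromosome X by -5.15 ± 0.64 and MIR93 on chromosome 7 by -5.46 ± 0.66 (edgeR adjusted p = 0.0170, 0.0145 and 0.0249). MIR93 had an adjusted p of 0.0808 without total footprint library 1 and the other 3 stayed under 0.05. Hairpins with other seeds were also called: MIR182 had 50.3 and 25.8 CPM against 0.556 and 0.225 CPM, and MIR191 had 42.5 and 48.7 CPM against 0.668 and 0.562 CPM. Their log2 fold changes were -6.82 ± 0.53 and -6.24 ± 0.50 (edgeR adjusted p = 0.00439 for both). MIR367, which shares the miR-302 transcript but has another seed, had 58 and 157 counts against 0 and 2, a ratio of 88.9 (95% exact interval 24.3 to 739, counting error only).

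Not every row named as a miRNA was far lower. MIR4426 had 20 and 323 CPM in total footprints and 50.3 and 275 CPM in the pull-down, so its groups overlapped and its log2 fold change was -0.08 ± 1.38. MIR1246 had 976 and 91 CPM against 60.8 and 9.26 CPM, a log2 fold change of -3.94 ± 1.54 (edgeR adjusted p = 0.261) that was -1.38 without total footprint library 1. In the matched RNA-seq libraries of endoderm, made with another kit, each miRNA named here was at 0 CPM.

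**Figure D3:**
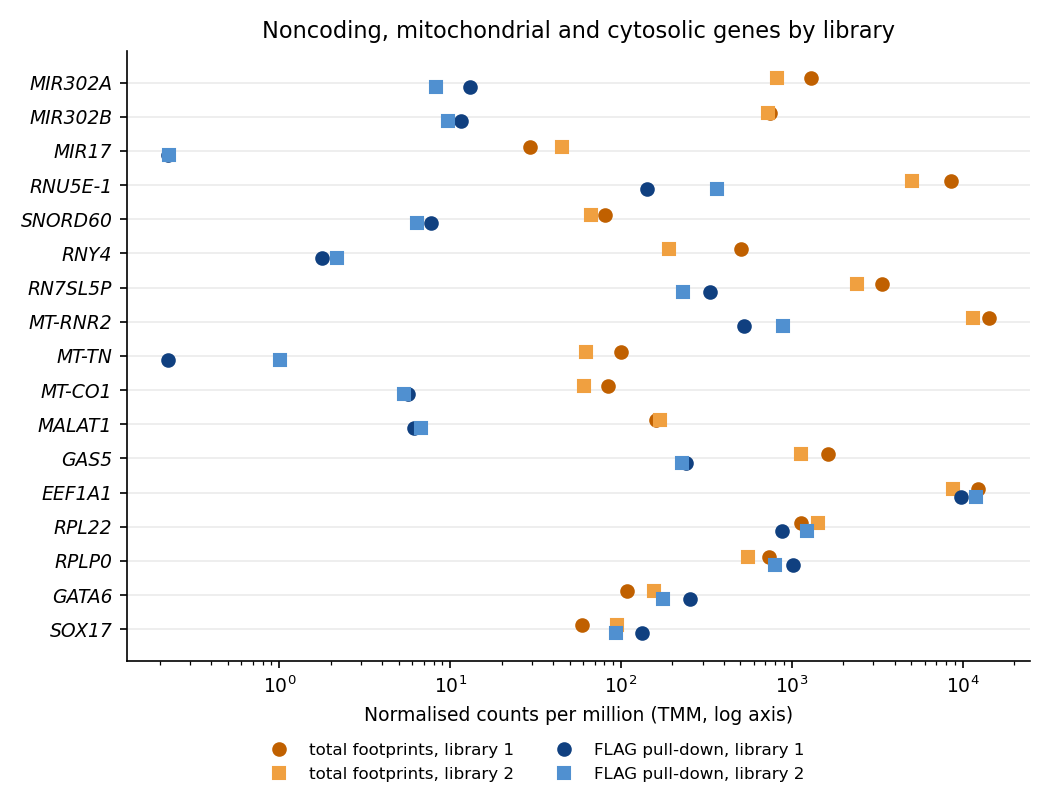
Normalised counts (CPM, log axis) of 17 genes in the 4 endoderm footprint libraries, 1 point per library. From MIR302A down to GAS5 the pull-down points (blue) lie left of the total footprint points (orange), as for MIR302B at 11.6 and 9.75 against 744 and 728; for EEF1A1, RPL22, RPLP0, GATA6 and SOX17 they lie close together.

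Mitochondrial RNA was lower in the pull-down for the rRNAs, for tRNAs and for mRNAs. MT-RNR2, the large mitochondrial rRNA, had 14200 and 11500 CPM in total footprints and 527 and 891 CPM in the pull-down. MT-RNR1, the small mitochondrial rRNA, had 4090 and 3840 CPM against 1150 and 1210 CPM. Neither pair of groups overlapped, and the gap was wider for the large subunit rRNA. The log2 fold change was -4.18 ± 0.43 for MT-RNR2 (edgeR adjusted p = 0.00832) and -1.75 ± 0.26 for MT-RNR1 (edgeR adjusted p = 0.0271). Without total footprint library 1, MT-RNR2 kept its call (adjusted p = 0.0247) and MT-RNR1 did not (adjusted p = 0.092), and leaving out pull-down library 1 gave MT-RNR2 an adjusted p of 0.0673. Of 20 mitochondrial tRNAs tested, 9 were lower and none was higher. Only 3 of the 20 had at least 10 counts in both endoderm pull-down libraries, and 1 of the 9 calls was among these. Another 8 had fewer than 10 counts in every pull-down library of either stage, so their direction was partly fixed by the filter. MT-TN, the asparagine tRNA, had 99.9 and 62.6 CPM against 0.223 and 1.01 CPM (log2 fold change -6.78 ± 0.56, edgeR adjusted p = 0.00517). Its pull-down values rested on 2 and 27 counts. MT-TE, the glutamate tRNA, had 143 and 67.9 CPM against 3.45 and 4.46 CPM (log2 fold change -4.71 ± 0.39, edgeR adjusted p = 0.00446). MT-TV, the valine tRNA, had 59.2 and 82.0 CPM against 29.2 and 20.4 CPM and did not pass (log2 fold change -1.52 ± 0.31, edgeR adjusted p = 0.0915). MT-TV is the tRNA that serves as a structural RNA of the mitochondrial large subunit in humans.

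The 13 mitochondrial mRNAs encode core subunits of the respiratory chain and are translated inside mitochondria. All 13 were tested and all had fold changes below 0, with a median of -2.82 and 5 of them past the threshold. MT-CO1, a subunit of cytochrome c oxidase, had 83.7 and 60.7 CPM in total footprints and 5.67 and 5.4 CPM in the pull-down. The log2 fold change was -3.71 ± 0.29 (edgeR adjusted p = 0.00439), and it was -3.48 without total footprint library 1 (adjusted p = 0.0164). The other oxidase subunits MT-CO2 and MT-CO3 were lower by -3.43 ± 0.40 and -4.09 ± 0.58, MT-ND5 of complex I by -2.51 ± 0.34 and MT-CYB of complex III by -2.17 ± 0.33 (log2 fold change, edgeR adjusted p between 0.0125 and 0.0294). The 2 latter calls were lost without total footprint library 1. MT-ND6 had 72.2 and 12.7 CPM against 1.45 and 0.412 CPM, a wide spread that left it at an edgeR adjusted p of 0.128. MT-ND2 had the value nearest to 0, -1.40 ± 0.32 (edgeR adjusted p = 0.118). The 44 nuclear-encoded respiratory chain subunits tested, translated on cytosolic ribosomes, had a median log2 fold change of 0.18. None was called, which is near the 0.863% called over all genes.

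Among spliceosomal RNAs, 11 of 152 tested were lower and none was higher. Of these 11 calls, 7 had at least 10 counts in both endoderm pull-down libraries, as did 71 of the 152. RNU5E-1, a U5 gene, had 8570 and 5030 CPM in total footprints and 142 and 366 CPM in the pull-down, and RNU5B-1 had 7500 and 5190 CPM against 199 and 405 CPM. The log2 fold change was -4.74 ± 0.52 for RNU5E-1 (edgeR adjusted p = 0.0113) and -4.39 ± 0.56 for RNU5B-1 (edgeR adjusted p = 0.0204), and without total footprint library 1 the adjusted p was 0.0231 and 0.0713. U5 genes and their copies share sequence, so the split of reads between RNU5E-1, RNU5B-1, RNU5E-4P and RNU5A-8P is uncertain. RNU5E-4P fell by 3.18 and RNU5A-8P by 5.87 on the log2 scale (edgeR adjusted p = 0.00477 and 0.0236). RNU11, of the minor spliceosome, had 28900 and 12100 CPM against 4410 and 3980 CPM and did not pass (log2 fold change -2.29 ± 0.56, edgeR adjusted p = 0.135). It was -1.55 without total footprint library 1.

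Of 194 snoRNAs and scaRNAs tested, 18 were lower and none was higher, with log2 fold changes of the called members from -6.96 to -1.73. Of these 18 calls, 12 had at least 10 counts in both endoderm pull-down libraries, as did 102 of the 194. SNORD60 had 81.0 and 66.6 CPM against 7.68 and 6.37 CPM, and SNORD69 had 57.6 and 77.4 CPM against 11.1 and 15.5 CPM. Neither overlapped. Their log2 fold changes were -3.40 ± 0.24 and -2.33 ± 0.24 (edgeR adjusted p = 0.00372 and 0.00863). SNORA53 had 618 and 285 CPM against 33.2 and 32.7 CPM (log2 fold change -3.78 ± 0.39, edgeR adjusted p = 0.00852). SNORD3C and SNORD116-3 were spread widely and did not pass. SNORD3C, a U3 gene of early rRNA processing, had 32200 and 2770 CPM against 3790 and 1220 CPM, and its log2 fold change of -2.80 ± 1.23 became -0.14 without total footprint library 1. SNORD116-3, of an imprinted cluster on chromosome 15, had 7420 and 3210 CPM against 369 and 3340 CPM, so its groups overlapped (log2 fold change -1.52 ± 1.04).

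Other small RNPs gave 3 calls among 29 rows tested. RNY4, a Y RNA bound by the Ro protein, had 507 and 192 CPM against 1.78 and 2.17 CPM, a log2 fold change of -7.44 ± 0.73 (edgeR adjusted p = 0.0131). The value was -6.60 without total footprint library 1, and the adjusted p was 0.195 without pull-down library 1. The other Y RNAs differed in spread: RNY3 had 2830 and 179 CPM against 51.2 and 6.04 CPM, and RNY1 had 742 and 231 CPM against 155 and 326 CPM, and neither passed. RNY1 overlapped between the groups, with a log2 fold change of -1.02 ± 0.75 that was 0.02 without total footprint library 1. RN7SL5P, a copy of the signal recognition particle RNA, had 3390 and 2420 CPM against 332 and 231 CPM (log2 fold change -3.37 ± 0.37, edgeR adjusted p = 0.0107). A 7SK row (ENSG00000202198), named for the RNA that holds the elongation factor P-TEFb, had 889 and 248 CPM against 33.7 and 24.0 CPM (log2 fold change -4.30 ± 0.62, edgeR adjusted p = 0.0426). Both families have many near-identical copies, so which copy the reads came from is uncertain.

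Long noncoding RNAs gave 11 lower calls among 717 tested (1.53%), not far from the 0.803% lower over all genes, and no higher call. MALAT1 (chr11:65497738-65506516), a nuclear RNA, had 161 and 170 CPM against 6.12 and 6.71 CPM. The replicates nearly coincided, and the log2 fold change was -4.69 ± 0.40 (edgeR adjusted p = 0.00477) and -4.75 without total footprint library 1. Its adjusted p was 0.0775 without pull-down library 1. The small RNA gene MASCRNA (chr11:65506117-65506174) lies within its span. NEAT1, the scaffold of paraspeckles, had 8.14 and 1.59 CPM against 0.668 and 0.337 CPM and did not pass. Of 8 nuclear long noncoding RNAs tested from a list of 9, MALAT1 was the only one past the threshold, and all 8 had fold changes below 0 (median -2.06, and -1.33 without total footprint library 1).

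Genes that carry snoRNAs in their introns formed a separate list of 23, all tested, of which 3 were lower, with a median log2 fold change of -1.63. GAS5 (chr1:173863901-173869045), whose span holds 11 small RNA genes, had 1630 and 1130 CPM against 240 and 227 CPM (log2 fold change -2.57 ± 0.31, edgeR adjusted p = 0.0134). ZFAS1 (chr20:49278178-49289260), with 3 snoRNA genes in its span, had 61.1 and 44.7 CPM against 11.7 and 9.18 CPM (log2 fold change -2.35 ± 0.34, edgeR adjusted p = 0.0259). The third was EIF4A2, a translation initiation factor (chr3:186783577-186789897) with 6 small RNA genes in its span, which had 1520 and 800 CPM against 245 and 336 CPM (log2 fold change -2.0 ± 0.33, edgeR adjusted p = 0.0426). In the fit that left out total footprint library 1, GAS5 kept its call (adjusted p = 0.0481) and ZFAS1 and EIF4A2 did not (0.103 and 0.073). Of the 8 fits that left out 1 library, EIF4A2 lost its call in 7, ZFAS1 in 5 and GAS5 in 2. Pseudogene copies of small RNAs count as small RNA genes in what follows. Among all long noncoding RNAs with a position, 6 of the 11 lower ones (54.5%) had a small RNA gene within their span, against 110 of 702 not past the threshold (15.7%). Among protein-coding genes it was 6 of 24 (25%) against 2163 of 13180 (16.4%). Of the lower genes counted, TTTY14, CCDC144NL-AS1, TMC5, ALG8 and ATAD5 held only a U4 or U6 pseudogene copy. Estimated counts per gene do not show which bases the reads covered, so reads of a small RNA and of its host cannot be told apart here.

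**Figure D4:**
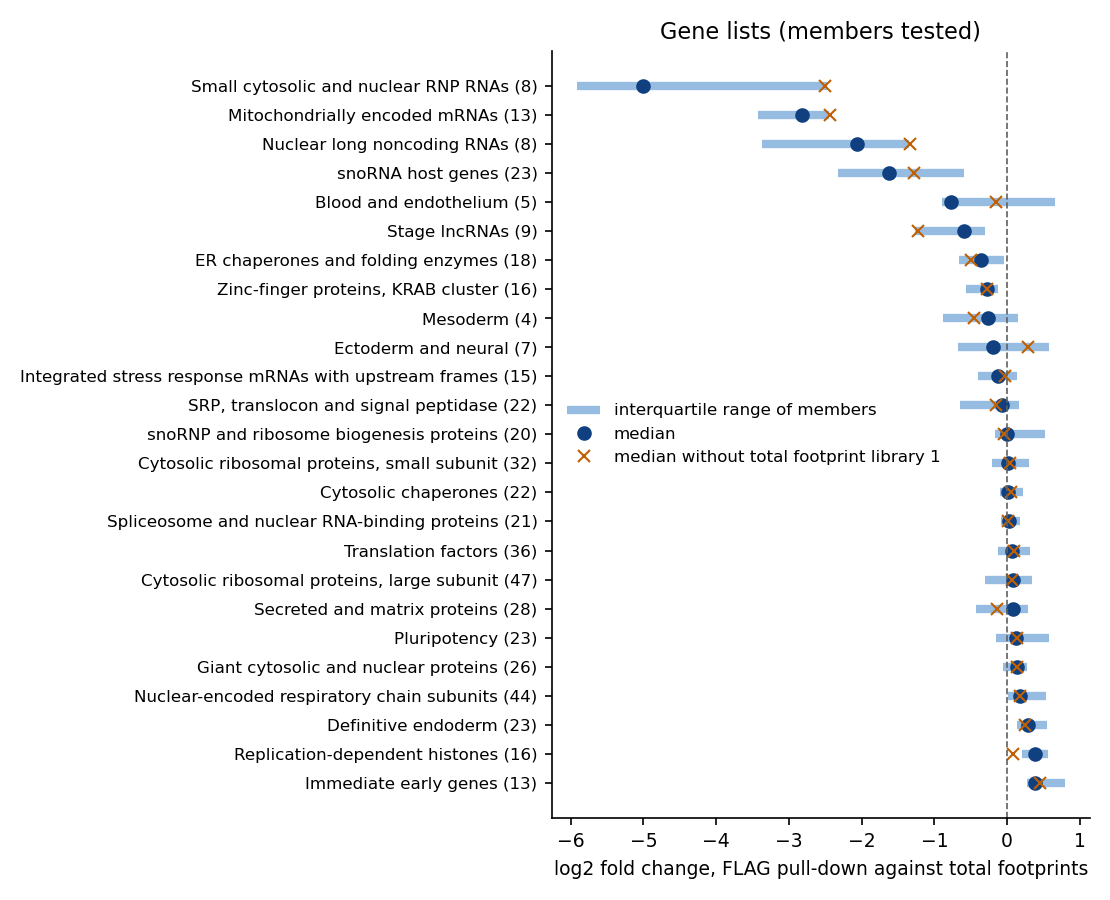
Log2 fold change of 25 gene lists with at least 4 members tested (number in brackets): median (blue point), interquartile range of the members (bar) and median without total footprint library 1 (orange cross). Mitochondrial mRNAs, small RNP RNAs, nuclear long noncoding RNAs and snoRNA hosts have medians from -5.00 to -1.63, and cytosolic protein lists such as ribosomal proteins lie near 0.

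The same point touches the largest features of total footprint library 1. WDR74 (chr11:62832905-62841809), a ribosome biogenesis protein gene whose annotated span includes the U2 gene RNU2-2 (chr11:62841619-62841809), took 10.4% and 2.30% of total footprints and 0.358% and 0.149% of the pull-down. CTC1, a telomere protein gene with 3 tRNA genes in its span, took 3.16% and 0.358% against 0.0125% and 0.00438%. LINC01783, with the U1 copy RNU1-6P and a tRNA gene in its span, took 16.3% and 0.505% against 0.145% and 0.0226%. ENSG00000261889, a row with no symbol, took 25.1% and 4.51% against 0.177% and 0.098%. All 4 held over 2% of a total footprint library, a ground for naming them, so lower pull-down values were partly fixed by that choice. Every pull-down value was below every total footprint value, yet none of the 4 passed the test (edgeR adjusted p between 0.128 and 0.199). The total footprint libraries also differed widely from each other. Leaving out total footprint library 1, the log2 fold changes were -3.34, -5.57, -2.74 and -5.20 in this order, and ENSG00000261889 then passed (adjusted p = 0.0229). TMC5, a membrane protein gene with the U4 copy RNU4-46P in its span, took 0.567% and 2.41% against 0.0283% and 0.11% and was called lower (log2 fold change -4.98 ± 0.71, edgeR adjusted p = 0.0402; 0.0795 without total footprint library 1). In the endoderm RNA-seq libraries TMC5 was at 0.422 and 0.491 CPM. RNA5-8SN2, which met the 2% rule through pull-down library 1, went the other way, at 0.083% and 0.105% against 4.85% and 1%.

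Protein-coding genes without a small RNA in their span were also among the 24 lower ones. FTL, the ferritin light chain, had 319 and 114 CPM against 19.6 and 23.1 CPM (log2 fold change -3.34 ± 0.51, edgeR adjusted p = 0.0426). STK4, a kinase of the Hippo pathway, had 65.8 and 55.5 CPM against 14.6 and 14.8 CPM (log2 fold change -2.04 ± 0.22, edgeR adjusted p = 0.0101). The groups did not overlap for either of them. VEGFA, the vascular growth factor gene, fell by 1.37 (SE 0.22, edgeR adjusted p = 0.0402), the histone gene H2BC12 by 1.78 (SE 0.30, adjusted p = 0.0483) and SERINC1 by 1.45 (SE 0.18, adjusted p = 0.0134) on the log2 scale. These 3 did not pass without total footprint library 1, while FTL and STK4 did (0.0298 and 0.0382). FTL lost its call with RLE scaling (0.0534), the replicate block (0.0578), glmTreat (0.0921), the 4 endoderm libraries alone (0.118) and 6 of the 8 fits that left out 1 library (0.0612 to 0.34). Of the 8 fits that left out 1 library, VEGFA lost its call in all 8 and H2BC12 in 6. VEGFA and H2BC12 also lost their calls with the replicate block, and VEGFA, H2BC12 and SERINC1 with glmTreat and the 4 endoderm libraries alone. H2BC12 lost its call with RLE scaling too. SMIM7 had 11.4 and 10.1 CPM against 2.56 and 2.47 CPM (log2 fold change -2.10 ± 0.23, edgeR adjusted p = 0.0104). TMEM107, whose span holds the U8 gene SNORD118, and CTDSP2, whose span holds MIR26A2, were lower by -2.88 ± 0.35 and -1.88 ± 0.25 (edgeR adjusted p = 0.0135 and 0.0191). Leaving out total footprint library 1, TMEM107 did not pass (0.073), and CTDSP2 and SMIM7 did (0.0462 and 0.0415).

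Lists of cytosolic mRNAs had medians near 0. With 0.863% of all genes called, lists of this size would hold few calls at the background share, and nothing is read from their absence. Of 32 small subunit and 47 large subunit ribosomal protein genes, none passed in either direction, with medians of 0.01 and 0.08. RPLP0, of the ribosomal stalk, had 734 and 556 CPM against 1020 and 797 CPM (log2 fold change 0.49 ± 0.23). RPL41, a very short protein of the large subunit, had 154 and 83.1 CPM against 29.6 and 38.4 CPM (log2 fold change -1.80 ± 0.35, edgeR adjusted p = 0.0748). RPL39L, the paralogue of RPL39 that stands outside this list, had 500 and 445 CPM against 106 and 108 CPM and was called lower (log2 fold change -2.14 ± 0.34, edgeR adjusted p = 0.0375; 0.13 without total footprint library 1). The mRNA of the bait did not pass, and footprints on it do not measure recovery of the tagged protein. RPL22 had 1130 and 1430 CPM in total footprints and 876 and 1220 CPM in the pull-down, with overlapping groups (log2 fold change -0.29 ± 0.23, edgeR adjusted p = 0.536). Its paralogue RPL22L1 was at 11.6 and 16.7 CPM against 8.12 and 11.4 CPM (log2 fold change -0.53 ± 0.27). The pseudogene RPL22P2, a copy of RPL22, had 761 and 663 CPM against 0.445 and 0 CPM. Such copies share reads with their parent genes, so the RPL22 values, and their overlap, may depend on how reads were split. The part of that split was not tested.

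Translation factors (36 tested) had a median of 0.07 with EIF4A2 as the 1 call. EEF1A1, the main elongation factor, had 12300 and 8790 CPM against 9840 and 11900 CPM (log2 fold change 0.05 ± 0.27). Its sign changed to -0.01 with scaling factors from protein-coding genes. Lists that meet the ER gave no call: 18 ER chaperones and folding enzymes had a median of -0.36, 28 secreted and matrix proteins 0.08, and 22 genes of the signal recognition particle, translocon and signal peptidase -0.07. HSPA5, the ER chaperone BiP, had 187 and 201 CPM against 145 and 164 CPM (log2 fold change -0.33 ± 0.27), and the matrix protein FN1 had 132 and 133 CPM against 86.2 and 74.9 CPM (log2 fold change -0.72 ± 0.24, edgeR adjusted p = 0.179). Stage genes gave no call. Of 23 definitive endoderm genes tested none passed (median 0.29), and SOX17 had 59.5 and 94.7 CPM against 133 and 92.9 CPM (log2 fold change 0.55 ± 0.40). Of 23 pluripotency genes tested none passed (median 0.12), and POU5F1 had 37.9 and 41.9 CPM against 78.1 and 53.7 CPM (log2 fold change 0.72 ± 0.26, edgeR adjusted p = 0.203).

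Only 10 rows were higher in the pull-down, and 8 of them were pseudogenes or rows without a symbol. The 2 protein-coding genes were FAM72A, with 9.17 and 8.82 CPM against 18.7 and 21.7 CPM (log2 fold change 1.17 ± 0.18, edgeR adjusted p = 0.0362; 0.143 without total footprint library 1), and PTTG2, with no count in total footprints and 36 and 54 counts in the pull-down, at least 36.3-fold higher when the empty group is set to 3 counts in all. FAM72A is 1 of several near-identical genes, and PTTG2 is an intronless copy of PTTG1, so both counts are uncertain. The FAM72A call was lost in each of the 8 fits that left out 1 library. The pseudogenes WDR82P2 and NSA2P3 had no count in total footprints against 88 and 254 and 88 and 313 counts, at least 138-fold and 162-fold higher. The reverse held for others: DYNLL1P1 had 1622 and 3936 counts against none, at least 1530-fold lower, and RPL22P2 had 10378 and 19551 counts against 4 and 0. RAB6C, an intronless copy of RAB6A, had 26 and 91 counts against none, at least 32.3-fold lower. Such copies share reads with their parent genes, so these rows are uncertain. In the fit without total footprint library 1, PTTG2, RPL22P2 and RAB6C did not pass (adjusted p = 0.0852, 0.0911 and 0.111), and WDR82P2, NSA2P3 and DYNLL1P1 did (0.00518, 0.0235 and 0.0202).

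Both cytosolic rRNA rows tested had fold changes above 0 in endoderm and below 0 in stem cells, and neither passed in either stage. RNA5-8SN2, a 5.8S rRNA gene, had 1840 and 861 CPM in total footprints and 35700 and 7450 CPM in the pull-down, where it took 4.85% and 1.0% of the counts. The groups did not overlap (log2 fold change 4.0 ± 1.47, edgeR adjusted p = 0.239). RNA5S9, a 5S rRNA gene, had 1.47 and 2.51 CPM against 7.01 and 4.24 CPM, also without overlap (log2 fold change 1.46 ± 0.53, edgeR adjusted p = 0.203). 5S and 5.8S genes have many near-identical copies, and rRNA fragments were depleted before sequencing.

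Undifferentiated stem cells were compared under the same contrast. There 192 genes (1.15%) passed, 177 lower (1.06%) and 15 higher (0.0899%), and 81 genes were lower in both stages, 60.4% of the endoderm calls and 45.8% of the stem cell calls. Of the 134 lower endoderm genes, 132 also had a fold change below 0 in stem cells. Rows with at least 10 counts in both endoderm pull-down libraries made up 72 of the 134. For rows with few counts in every pull-down library, the sign in both stages was partly fixed by the filter. The 2 stages share no library, but they share 1 fit with its filter, scaling and estimate of spread, so their calls are not independent. Over all genes tested their fold changes correlated at Pearson 0.44 and Spearman 0.49, a description across genes that are not independent replicates. Class medians in stem cells were -3.17 for miRNA, -2.42 for mitochondrial tRNA, -2.18 for snRNA, -2.31 for snoRNA and scaRNA and -3.39 for mitochondrial mRNA. MIR302A had 221 and 115 CPM against 16.4 and 5.23 CPM there (log2 fold change -3.96, edgeR adjusted p = 0.0658), and MALAT1 had 38.5 and 35.9 CPM against 10 and 4.22 CPM (log2 fold change -2.39, edgeR adjusted p = 0.0288). The test of the difference between stages passed for 2 of 16679 genes (0.012%), 1 in each direction (0.006% each), the pseudogenes WDR82P2 and EZRP1, and for no small RNA. RNA5-8SN2 had 10400 and 835 CPM against 1150 and 1780 CPM in stem cells, with overlapping groups (log2 fold change -1.94). RNA5S9 had 7.34 and 2.80 CPM against 1.25 and 1.81 CPM there, without overlap (log2 fold change -1.72, edgeR adjusted p = 0.211). Both rRNA rows thus went in the opposite direction to endoderm.

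**Figure D5:**
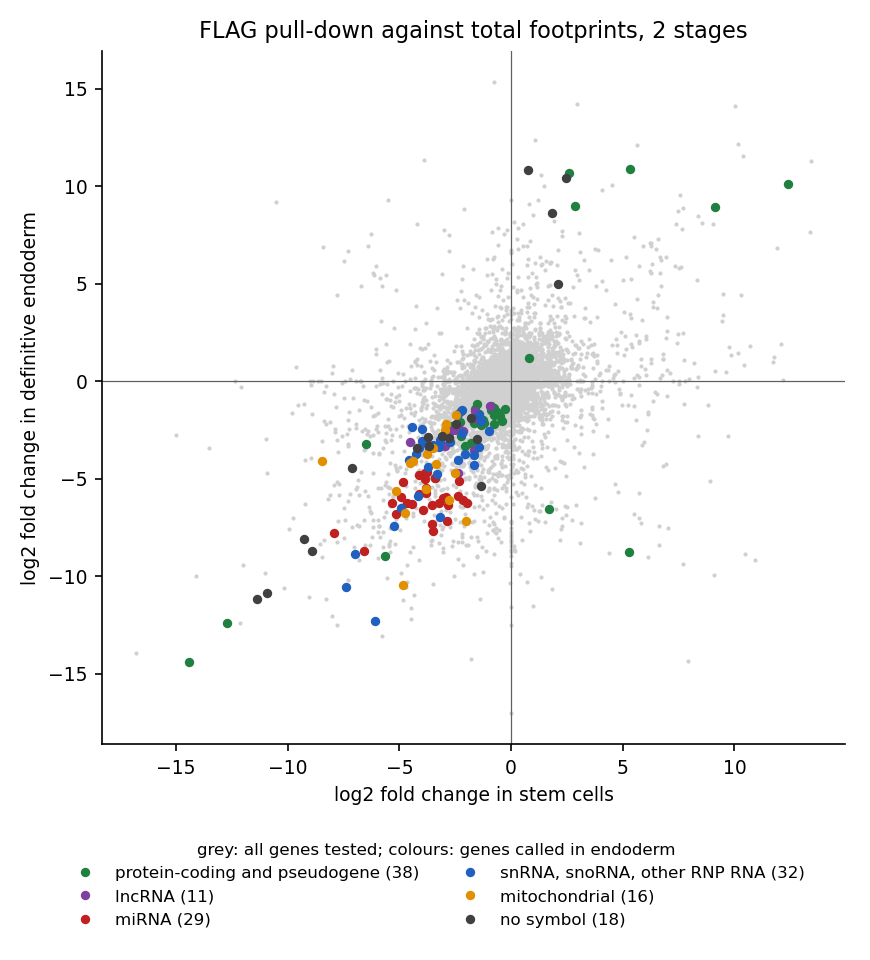
Log2 fold change of the FLAG pull-down against total footprints in undifferentiated stem cells (horizontal) and definitive endoderm (vertical), with all genes tested in grey and the genes called in endoderm coloured by class (number in brackets). Of the 134 lower genes, 132 lie left of 0, a sign partly fixed by the filter for rows with few pull-down counts. Fold changes of rows at 0 in a group depend on the prior count.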

How the data were processed

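The authors deposited 1 table of estimated counts per gene (57808 rows, 18 libraries), with GRCh38 as the build and Salmon, Bowtie, cutadapt, UMI-tools and DESeq2 as tools, per the submitters' processing notes, which give no roles. Duplicate removal, strand and read lengths are not given in the sources used here. Symbols were found for 41495 rows (71.8%) and RNA classes from RefSeq (GRCh38.p14) for 40051 (69.3%). Small RNA hosts are genes whose RefSeq span contains a small RNA gene, or a pseudogene copy of one, on either strand. Deposited estimated counts were rounded and fitted in edgeR 4.0.16 (R 4.3.3) with 4 group means over 8 footprint libraries, filterByExpr, TMM scaling, the robust quasi-likelihood F test and Benjamini-Hochberg adjustment over 16679 genes (threshold 0.05, 4 residual degrees of freedom). SE is the fold change over the root of F. CPM are TMM-scaled, with no correction for gene length, so levels of different genes are not compared. Totals per library, which set the precision, were 6606248 to 30167927 counts in endoderm. Share intervals are 95% Wilson intervals. The script was tested on simulated data.

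Named genes follow this rule: per direction the 10 largest called changes with a symbol, a mean log2 CPM of at least 3 over the 4 libraries and no overlap; per class the 3 largest called changes per direction and the 2 most abundant rows; per list up to 4 called and 2 uncalled members; a fixed set (RPL22, RPL22L1, WDR74, RN7SK, RMRP, MALAT1, GAS5, MT-CO1, SOX17, GATA6, POU5F1 and EEF1A1); and features over 2% of a library. The rows matched to RN7SK and RMRP held no count in these 4 libraries. The other genes named, most miRNAs and protein-coding genes among them, were chosen after their values were seen. The comparison, the 27 gene lists and the rule were chosen with earlier results of these data known. Lists whose values are not given above had no call: 10 stage long noncoding RNAs, 17 histones, 22 cytosolic chaperones, 21 spliceosome proteins, 20 snoRNP and ribosome biogenesis proteins, 15 stress response mRNAs, 14 immediate early genes, 20 zinc-finger proteins, 26 giant proteins and the mesoderm, neural and blood markers. Replicate numbers were not taken as pairs, since replicate differences correlated at -0.11 to 0.12 between groups. Alternatives were RLE scaling, TMM from protein-coding genes, no filter, a stricter filter, DESeq2 1.42.0, a replicate block, protein-coding genes alone, glmTreat, each library left out and the 4 endoderm libraries alone. A result on 1 gene is not reported here.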

Additional observations from a re-analysis of the deposited data

Results flagged for a closer look

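The fold change of the pull-down against total footprints differed between endoderm and stem cells for 2 pseudogenes, by the edgeR test of that difference. For WDR82P2 the log2 difference was 8.11 (adjusted p = 0.028), with 0 and 0 CPM against 9.79 and 9.52 CPM in endoderm and 3.94 and 4.02 CPM against 24.9 and 22.6 CPM in stem cells, so that both stages were higher in the pull-down. The endoderm value rests on total footprint libraries at 0 and so on the prior count. For EZRP1 the difference was -7.16 (adjusted p = 0.0249), with 1.17 and 1.39 CPM against 0.89 and 0.787 CPM in endoderm and 0.227 and 0.158 CPM against 13.3 and 22.8 CPM in stem cells. Both are copies that share reads with their parent genes, and the part of that in the difference was not tested.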

How the results depend on the processing

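The 144 calls of the pull-down against total footprints in endoderm became 1526 with no filter (569 higher, 957 lower), 1035 with DESeq2 (410 higher, 625 lower) and 78 with glmTreat against a log2 fold change of 1, a stricter hypothesis; for the others the cause was not tested. With protein-coding genes alone there were 53, against the 26 protein-coding calls of the joint fit, all of them shared. Leaving out 1 library gave 36 to 332 calls: 36 without pull-down library 1, 83 without total footprint library 1 and 332 without total footprint library 2. The replicate block gave 149 calls, 113 of them shared. Among the 52 named calls, 35 remained with glmTreat and 35 with the 4 endoderm libraries alone. Lost in both were MT-RNR1, MT-CO3, MT-CYB, TMC5, EIF4A2, CTDSP2, FTL, VEGFA, H2BC12, SERINC1, FAM72A, RPL22P2 and the 7SK row. Of 52 called genes named in the text, none reversed under any alternative; 34 kept their call without total footprint library 1, 14 without pull-down library 1, 28 without pull-down library 2 and 45 with the replicate block. The 2 calls of the difference between stages became 214 with no filter, 58 with DESeq2, 0 with the replicate block (577 at an unadjusted p under 0.05), 0 with protein-coding genes alone (500 unadjusted) and 0 to 11 with 1 library left out.

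With no filter the median log2 fold change was -3.12 for miRNA and -0.59 for long noncoding RNA. Leaving out 1 endoderm library gave medians of -0.06 to 0.10 for protein-coding genes, -1.06 to -0.80 for long noncoding RNA, -0.13 to 0.36 for pseudogenes, -5.99 to -5.15 for miRNA, -4.25 to -1.73 for snRNA, -4.94 to -2.36 for other small RNP RNA and -6.07 to -4.32 for mitochondrial tRNA. For lists it gave -5.76 to -2.51 for small RNP RNAs, -0.15 to 0.05 for signal recognition particle and translocon genes, -0.15 to 0.13 for pluripotency, -0.31 to 0.29 for neural and -1.17 to -0.15 for blood markers. Without features over 2%, the small RNA shares were 19.3%, 10.9%, 3.19% and 3.1%. Signs reversed for MIR4426 (0.16 with the replicate block, and -1.78 to 3.03 with 1 library left out), RNY1 (-1.65 to 0.02 with 1 library left out, the highest without total footprint library 1) and EEF1A1 (-0.01 with TMM from protein-coding genes, -0.00 with protein-coding genes alone, and -0.17 to 0.28 with 1 library left out), none of them called. The planned description by protein length and N-terminal hydrophobicity was not run.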
